A study of Mus musculus with 10 samples.

Results

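Interferon-stimulated genes are the transcripts that cells switch on after interferon binds its receptor. The set described here holds 48 listed genes, taken by name, of the 22180 genes that had a transcript cluster (a group of array probes for a transcript region) annotated with that gene alone. They were divided by their textbook main inducer into 33 type I genes and 15 interferon gamma genes, although many respond to both. Gene expression had been measured in livers of male mice at 4 weeks of age with Affymetrix arrays that cover whole mouse transcripts, 1 array per sample. Of the 10 livers, 3 carried Rosa26-rtTA with SOD2 shRNA 1 (called shRNA 1), 3 carried Rosa26-rtTA with SOD2 shRNA 2 (shRNA 2), and 4 were littermates with Rosa26-rtTA alone (control). The transactivator rtTA, expressed from the broadly active Rosa26 locus, switches on a responsive short hairpin RNA gene while doxycycline is present. The hairpins target Sod2, the mitochondrial superoxide dismutase. Doxycycline chow at 625 mg/kg was fed to the pregnant dams, for a knockdown from embryonic day 0 to 12.5, and the livers were taken after that window had ended. Cohort 2 gave 3 of the controls and cohort 1 gave 1, numbered like the hairpins, and the labels do not say which control came from where, so that hairpin and cohort cannot be told apart.

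Type I interferons act through IFNAR1 and IFNAR2, the kinases JAK1 and TYK2 and a complex that holds STAT2 and IRF9 and binds a DNA element called ISRE. Interferon gamma acts through IFNGR1 and IFNGR2 and the kinases JAK1 and JAK2, its target genes often carry the element called GAS, and its early product IRF1 binds ISRE-like sites. In liver, hepatocytes, Kupffer cells and sinusoidal endothelium can all respond, and the products restrict viruses and intracellular microbes and prepare peptides for T cells.

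The upstream windows of the interferon gamma GTPases Gbp3, Gbp7, Igtp and Irgm2 are shown because 3 of these genes had values that did not overlap between the hairpin lines, with that of the type I gene Ifit1 beside them. Only windows that held a match to the elements described below were taken, which left out 1 of the 2 windows of Gbp3. A match in every window shown was therefore fixed by the choice. The sequences are RefSeq's, build GRCm38.p6, plus strand, 5′ to 3′, and they end before the annotated start of the gene. The windows are chr3:142559794-142560015 for Gbp3, chr3:142530086-142530335 for Gbp7, chr11:58199306-58199555 for Igtp, chr11:58214727-58214976 for Irgm2 and chr19:34640639-34640888 for Ifit1. Capitals mark matches to an ISRE core (GAAA, any 2 bases, GAAA) or to the GAS letters TTCNNNGAA on either strand, and matches may overlap.
Gbp3: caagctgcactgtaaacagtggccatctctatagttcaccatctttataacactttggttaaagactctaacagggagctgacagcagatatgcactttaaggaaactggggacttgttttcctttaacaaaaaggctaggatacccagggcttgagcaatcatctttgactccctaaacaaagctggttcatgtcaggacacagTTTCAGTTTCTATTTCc
Gbp7: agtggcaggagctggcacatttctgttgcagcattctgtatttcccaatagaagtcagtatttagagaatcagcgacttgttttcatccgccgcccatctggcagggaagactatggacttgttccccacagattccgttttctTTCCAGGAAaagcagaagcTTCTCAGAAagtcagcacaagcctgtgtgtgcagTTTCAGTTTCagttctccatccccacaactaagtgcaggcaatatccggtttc
Igtp: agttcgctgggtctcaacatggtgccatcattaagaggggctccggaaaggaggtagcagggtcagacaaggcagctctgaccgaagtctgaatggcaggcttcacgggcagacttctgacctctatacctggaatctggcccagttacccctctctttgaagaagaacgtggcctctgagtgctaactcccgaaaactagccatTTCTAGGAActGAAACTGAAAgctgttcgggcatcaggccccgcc
Irgm2: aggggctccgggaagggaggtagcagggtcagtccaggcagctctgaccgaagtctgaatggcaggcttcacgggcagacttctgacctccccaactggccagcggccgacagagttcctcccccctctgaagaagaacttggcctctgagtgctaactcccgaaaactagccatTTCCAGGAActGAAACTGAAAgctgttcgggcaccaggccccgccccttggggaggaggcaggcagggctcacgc
Ifit1: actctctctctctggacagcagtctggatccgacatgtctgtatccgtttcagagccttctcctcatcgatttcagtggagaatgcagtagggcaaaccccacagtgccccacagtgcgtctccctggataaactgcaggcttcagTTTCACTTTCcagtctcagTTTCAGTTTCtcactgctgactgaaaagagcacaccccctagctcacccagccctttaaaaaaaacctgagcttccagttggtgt
In Gbp3 the capitals are 2 overlapping ISRE matches, and in Ifit1 they are 2 separate ones. Gbp7 has 2 GAS matches upstream of 1 ISRE match. Igtp and Irgm2 each have 1 GAS match followed after 2 bases by 1 ISRE match, and these neighbouring genes share an identical run of 55 bases elsewhere in the window. Of the 48 members, 37 had a RefSeq start window. Over the 250 bases before the start, ISRE letters were found in 16 of these 37 members (16 of 45 windows) and in 2.98% of all 32851 windows. GAS letters were found in 9 of 37 members (9 of 45 windows) and in 7.02% of all windows. A match is a description of letters and not a bound site, and Xaf1 and Trim12a, the members with the smallest p-values, hold neither in this window. The median log2 difference of shRNA 1 from control was +0.23 over the 15 tested members with ISRE letters and +0.18 over the 18 without, and that of shRNA 2 was +0.06 and +0.10. Split by GAS letters, the shRNA 1 median was +0.22 over the 9 tested members with them and +0.23 over the 24 without. That of shRNA 2 was +0.08 and +0.07.

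Of the 48 members, 44 had a cluster of their own, and 42 (30 type I, 12 interferon gamma) reached the level filter at the 40th percentile of mean level (log2 3.98) and were tested with limma among 13308 genes. Mx1, an antiviral GTPase, lay under the filter at 3.19, 3.26 and 3.41 in shRNA 1 livers, 3.14, 3.03 and 3.14 in shRNA 2 livers, against 3.32, 3.27, 3.34 and 3.31 in controls. Gbp6, a guanylate-binding GTPase, lay under it at 2.99, 2.84 and 2.97 in shRNA 1 livers, 2.88, 3.00 and 2.63 in shRNA 2 livers, against 3.01, 2.91, 3.02 and 2.83 in controls. Ifi35 and Irf8 each had a second cluster with a lower level, and its shRNA 1 difference had the opposite sign, at -0.14 for Ifi35 and +0.04 for Irf8. Dtx3l, Gbp2 and Ifi47 shared a cluster with another gene, and Ifi44 was not analysed here. The cluster of Dtx3l with Parp9 differed from control by +0.08 in shRNA 1 and +0.11 in shRNA 2 livers, that of Gbp2 with Gbp2b by +0.12 and +0.05, and that of Ifi47 with Olfr56 by -0.04 and -0.08, as means without a test. All values are log2 expression values as deposited, and a difference is the hairpin group minus control on that scale. Array medians over all clusters lay between log2 4.06 and 4.17. Sod2 itself stood at a mean of 10.39 in shRNA 1 livers, 10.35 in shRNA 2 livers and 10.38 in controls (both shRNA groups minus control -0.01, adjusted p = 0.980 in limma). Precision is limited by the number of arrays, and because the labels do not state that each liver came from a separate animal, the p-values speak for the spread among these 10 samples.

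No member passed an adjusted p of 0.05 in limma in any comparison. In shRNA 1 livers 0 of 42 members passed, against 0% of all genes tested, and 11 members were higher and 0 lower at p under 0.05 before adjustment, against 4.57% and 3.32% of all genes. A positive difference was seen in 37 of 42 members, against 52.4% of all genes, and the median difference was +0.20 over the members and +0.01 over all genes. All 3 shRNA 1 livers lay above all 4 controls for 11 members (5.07% of all genes) and below them for 1 member, Irf1 (3.82% of all genes). In shRNA 2 livers 0 of 42 members passed, against 0.00751% of all genes, and 4 higher and 3 lower members had an unadjusted p under 0.05, against 4.14% and 3.46% of all genes. There 24 of 42 differences were positive, against 51.2% of all genes, and the median was +0.06 over the members and 0.00 over all genes. These livers lay wholly above the controls for 2 members (3.88% of all genes) and wholly below them for 2 (3.41% of all genes). Both hairpin comparisons use the same 4 controls. The lines were therefore also set against each other. In shRNA 1 against shRNA 2, 0 of 42 members passed, against 0.015% of all genes, with 6 higher and 1 lower at an unadjusted p under 0.05 (3.32% and 2.7% of all genes) and a median of +0.18, against 0.00 over all genes. All 3 shRNA 1 livers lay above all 3 shRNA 2 livers for 9 members (5.94% of all genes) and below them for 1, Irf8 (5.36% of all genes). For both shRNA groups at once, as the mean of their means minus control, 0 of 42 members passed, against 0.00751% of all genes, with 10 higher and 2 lower at an unadjusted p under 0.05 (4.86% and 3.51% of all genes) and a median of +0.12, against +0.01 over all genes. Leaving out each array in turn moved the member median in shRNA 2 livers to between -0.03 (without shRNA 2 replicate 2) and +0.15 (without shRNA 2 replicate 3). The median between the lines ran from +0.11 (without shRNA 2 replicate 3) to +0.27, and that of both groups from +0.08 (without control replicate 1) to +0.17. With all arrays, positive differences were seen in 33 of 42 members for both groups (52% of all genes) and in 36 of 42 between the lines (51.1% of all genes).

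**Figure D1:**
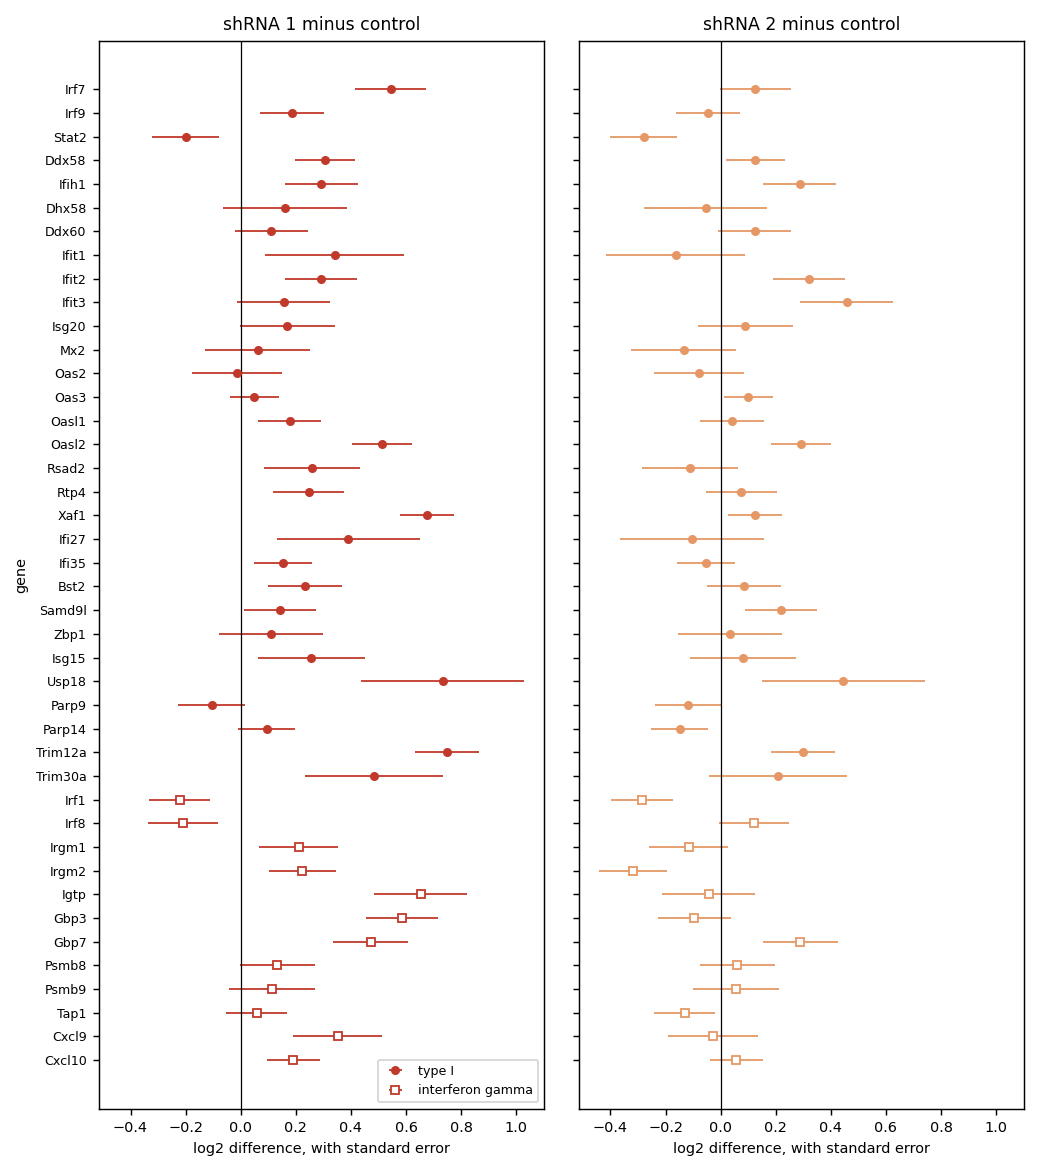
Log2 difference from control with its standard error for the 42 tested members, shRNA 1 at the left and shRNA 2 at the right, with filled circles for type I genes and open squares for interferon gamma genes. Most points of shRNA 1 lie right of 0, with Trim12a, Usp18, Xaf1 and Igtp farthest, while the points of shRNA 2 lie on both sides.

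Among the transcription factors of the type I response, Irf7, which drives the later wave of interferon genes, was set apart in shRNA 1 livers. It stood at 8.34, 8.30 and 8.37 in shRNA 1 livers, 8.17, 7.98 and 7.60 in shRNA 2 livers, against 7.68, 7.75, 7.98 and 7.75 in controls. Every shRNA 1 liver was above every control and every shRNA 2 liver, and the shRNA 2 livers spanned the control range. The difference from control was +0.54 with a standard error of 0.13 in shRNA 1 livers (adjusted p = 0.251) and +0.13 in shRNA 2 livers (adjusted p = 0.861). Stat2, the signalling subunit specific to type I and type III interferon, had 7.42, 7.67 and 7.47 in shRNA 1 livers, 7.38, 7.51 and 7.43 in shRNA 2 livers, against 7.59, 7.52, 7.76 and 8.01 in controls. Its differences were negative in both lines, at -0.20 in shRNA 1 (adjusted p = 0.743) and -0.28 in shRNA 2 livers (adjusted p = 0.637), and all 3 shRNA 2 livers lay below all controls. Without control replicate 4 these differences of Stat2 were -0.10 and -0.18. Irf9, its DNA-binding partner, had 7.54, 7.50 and 7.39 in shRNA 1 livers, 7.24, 7.39 and 7.10 in shRNA 2 livers, against 7.05, 7.29, 7.50 and 7.32 in controls. The shRNA 1 livers overlapped the controls but lay above the shRNA 2 livers, and the difference from control was +0.19 in shRNA 1 (adjusted p = 0.749) and -0.05 in shRNA 2 livers (adjusted p = 0.959). Without control replicate 1 the shRNA 1 difference of Irf9 was +0.10.

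The RNA sensors detect viral RNA in the cytosol and are themselves induced by interferon. Ddx58, which encodes RIG-I, had 7.53, 7.94 and 7.66 in shRNA 1 livers, 7.62, 7.56 and 7.41 in shRNA 2 livers, against 7.47, 7.45, 7.38 and 7.31 in controls. The shRNA 1 livers lay above all controls by a narrow margin, and the difference was +0.30 (standard error 0.11, adjusted p = 0.492), or +0.19 without shRNA 1 replicate 2. Ifih1, which encodes MDA5, differed by almost the same amount in both lines, +0.29 in each (adjusted p = 0.627 in shRNA 1 and 0.666 in shRNA 2 livers). Its values were 8.59, 8.83 and 8.83 in shRNA 1 livers, 8.70, 8.89 and 8.64 in shRNA 2 livers, against 8.38, 8.61, 8.68 and 8.16 in controls, so that the groups overlapped. Without control replicate 4 the shRNA 1 difference of Ifih1 was +0.19. Dhx58, which encodes the regulator LGP2, had 6.36, 6.68 and 6.41 in shRNA 1 livers, 6.39, 6.72 and 5.69 in shRNA 2 livers, against 6.04, 6.63, 6.55 and 6.07 in controls. The helicase Ddx60 had 5.68, 6.19 and 5.82 in shRNA 1 livers, 5.84, 6.11 and 5.78 in shRNA 2 livers, against 5.69, 5.95, 5.75 and 5.75 in controls. Both overlapped in all groups, and their shRNA 1 differences were +0.16 (adjusted p = 0.918) and +0.11 (adjusted p = 0.905), and without shRNA 1 replicate 2 they were +0.06 for Dhx58 and -0.04 for Ddx60.

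**Figure D2:**
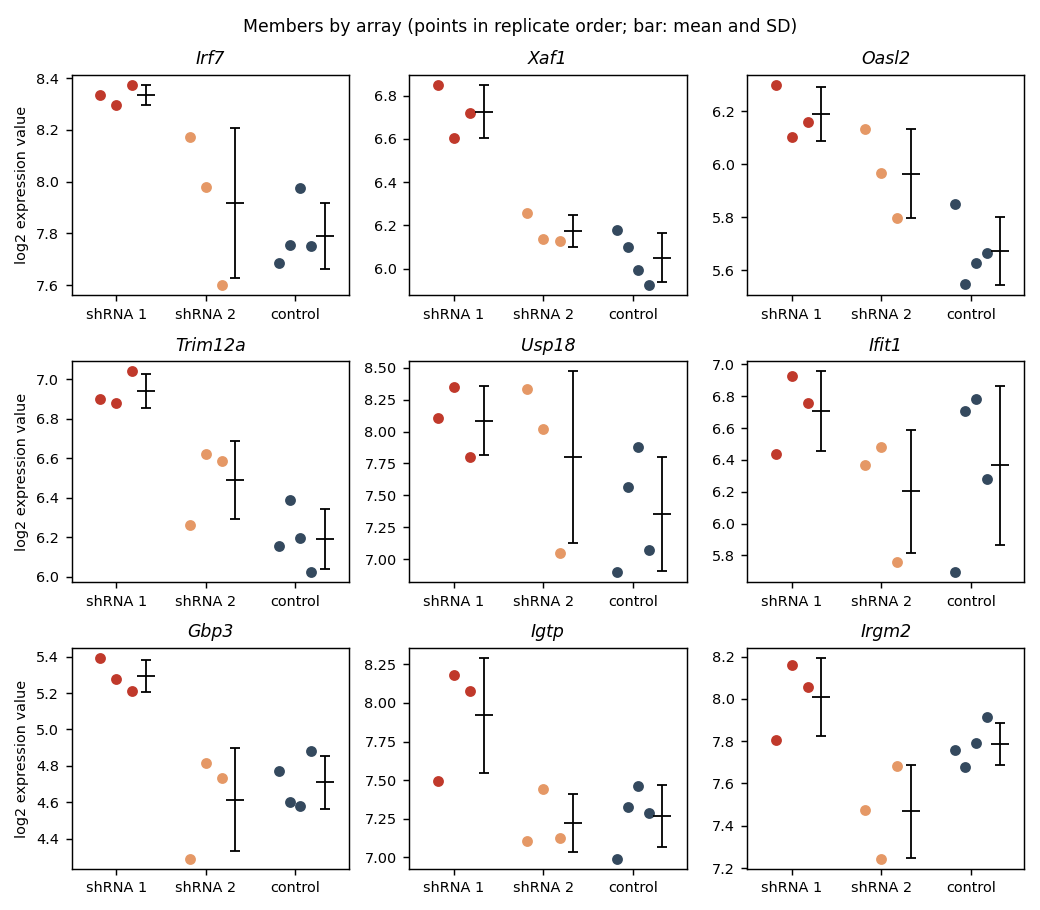
Log2 expression values of 9 members in each array, shRNA 1 at the left, shRNA 2 in the middle and control at the right of each panel, with the mean and SD beside the points. Xaf1, Trim12a, Irf7, Gbp3 and, by a narrow margin, Igtp show 3 shRNA 1 points above all others. Usp18 and Ifit1 spread over a range of more than 1 log2 unit within the controls or the shRNA 2 livers.

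Antiviral effectors are the largest class, with 17 of its 19 genes tested. Xaf1, a proapoptotic partner of XIAP that interferon induces, gave the smallest adjusted p of all members. Its values were 6.85, 6.60 and 6.72 in shRNA 1 livers, 6.26, 6.14 and 6.13 in shRNA 2 livers, against 6.18, 6.10, 5.99 and 5.92 in controls. The shRNA 1 livers stood clear of all 7 other livers, which overlapped each other. The difference from control was +0.68 (standard error 0.10, adjusted p = 0.0525), which did not pass the threshold. Leaving out each array in turn gave adjusted p-values from 0.0487 to 0.243, the lowest without shRNA 2 replicate 3, an array that enters this comparison through the shared variance. Against shRNA 2, Xaf1 was at +0.55 (adjusted p = 0.233). Its 6 nearest tested neighbours on chromosome 11 (Med31, 4930563E22Rik, Slc13a5, Smtnl2, Ggt6 and Mybbp1a) differed from control by -0.18 to +0.30 in shRNA 1 livers.

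Oasl2, an oligoadenylate synthetase-like protein, had 6.30, 6.10 and 6.16 in shRNA 1 livers, 6.13, 5.97 and 5.80 in shRNA 2 livers, against 5.85, 5.55, 5.63 and 5.66 in controls. All shRNA 1 livers lay above the controls, and 2 of 3 shRNA 2 livers did. The differences were +0.51 (standard error 0.11, adjusted p = 0.197) in shRNA 1 and +0.29 (adjusted p = 0.621) in shRNA 2 livers. Its neighbour in the family, Oasl1, differed by +0.18 in shRNA 1 livers (adjusted p = 0.761), while Oas2 and Oas3, which make the activator of RNase L, were at -0.01 and +0.05. The OAS genes are close relatives, and cross-hybridisation between them was not tested.

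Ifit proteins bind foreign RNA ends and block its translation, and the 3 Ifit members did not follow each other across arrays. Ifit1 had 6.44, 6.93 and 6.76 in shRNA 1 livers, 6.37, 6.48 and 5.76 in shRNA 2 livers, against 5.70, 6.71, 6.78 and 6.28 in controls. Ifit2 had 4.52, 4.74 and 4.54 in shRNA 1 livers, 4.48, 4.42 and 4.98 in shRNA 2 livers, against 4.32, 4.38, 4.31 and 4.22 in controls. Ifit3 had 5.79, 5.75 and 5.18 in shRNA 1 livers, 5.86, 5.59 and 6.17 in shRNA 2 livers, against 5.52, 5.55, 5.30 and 5.30 in controls. In shRNA 2 replicate 3, Ifit1 was below all but control replicate 1, while Ifit2 and Ifit3 were at their highest of the 10 arrays. Ifit2 was above all controls in both lines, at +0.29 (adjusted p = 0.620) in shRNA 1 and +0.32 (adjusted p = 0.630) in shRNA 2 livers, where it was +0.14 without shRNA 2 replicate 3. Ifit3 was above them in shRNA 2 livers, at +0.46 (adjusted p = 0.621), or +0.31 without shRNA 2 replicate 3. Ifit3 has a near-identical neighbouring copy, so that its values are uncertain.

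The other effectors showed overlap between shRNA 1 livers and controls, apart from Oasl1 and Bst2. Bst2, or tetherin, which holds budding virions at the cell surface, had 10.21, 10.33 and 10.26 in shRNA 1 livers, 10.23, 10.36 and 9.76 in shRNA 2 livers, against 10.04, 9.98, 10.20 and 9.91 in controls, with a difference of +0.23 in shRNA 1 livers (adjusted p = 0.730). Rtp4, a receptor transporter protein with antiviral activity, was at 7.68, 7.77 and 7.77 in shRNA 1 livers, 7.67, 7.78 and 7.25 in shRNA 2 livers, against 7.48, 7.71, 7.42 and 7.37 in controls. Its shRNA 1 difference was +0.25 (adjusted p = 0.691), and 1 control lay within the range of the shRNA 1 livers. Samd9l, a virus restriction factor, had 4.84, 5.14 and 5.01 in shRNA 1 livers, 5.20, 5.02 and 4.99 in shRNA 2 livers, against 4.68, 5.12, 4.96 and 4.63 in controls. The groups overlapped, and it differed by +0.14 in shRNA 1 and +0.22 in shRNA 2 livers (adjusted p = 0.858 and adjusted p = 0.756). The remaining tested effectors, Isg20, Mx2, Rsad2, Ifi27, Ifi35 and Zbp1, differed from control by +0.06 to +0.39 in shRNA 1 livers and by -0.13 to +0.09 in shRNA 2 livers. Ifi27 had the widest spread among these in shRNA 2 livers, at 8.42, 8.26 and 7.18, against 7.99, 8.10, 8.47 and 7.68 in controls.

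Isg15 is a ubiquitin-like tag, and Usp18 removes it and blocks the type I receptor, closing a feedback loop. Usp18 had 8.11, 8.35 and 7.80 in shRNA 1 livers, 8.33, 8.02 and 7.05 in shRNA 2 livers, against 6.90, 7.57, 7.88 and 7.07 in controls. Its difference of +0.73 in shRNA 1 livers was among the largest of the members but had a standard error of 0.30 (adjusted p = 0.568), and in shRNA 2 livers it was +0.45 (adjusted p = 0.791). Both Usp18 and Isg15 were high in control replicate 3 and low in control replicate 1 and shRNA 2 replicate 3. Isg15 had 5.87, 6.12 and 5.97 in shRNA 1 livers, 5.97, 6.09 and 5.39 in shRNA 2 livers, against 5.39, 5.83, 6.15 and 5.56 in controls, a difference of +0.26 in shRNA 1 livers (adjusted p = 0.803). Without control replicate 1 that difference was +0.14. The ADP-ribosyltransferase Parp14 had 7.89, 8.03 and 7.94 in shRNA 1 livers, 7.86, 7.77 and 7.50 in shRNA 2 livers, against 7.74, 7.83, 7.90 and 7.97 in controls. Its relative Parp9 had 7.75, 7.79 and 7.54 in shRNA 1 livers, 7.62, 7.94 and 7.48 in shRNA 2 livers, against 7.68, 7.93, 7.86 and 7.73 in controls. Both overlapped between shRNA 1 livers and controls, with differences of +0.09 (adjusted p = 0.899) and -0.11 (adjusted p = 0.902), though for Parp14 the shRNA 1 livers lay above the shRNA 2 livers. The difference of Parp14 was +0.05 without control replicate 1, and that of Parp9 was -0.03 without shRNA 1 replicate 3.

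Of the TRIM proteins, Trim12a, a relative of the retroviral restriction factor TRIM5, had 6.90, 6.88 and 7.04 in shRNA 1 livers, 6.26, 6.62 and 6.59 in shRNA 2 livers, against 6.15, 6.39, 6.20 and 6.02 in controls. The shRNA 1 livers lay above all 7 others, and 2 of 3 shRNA 2 livers were above the controls. The difference was +0.75 (standard error 0.12, adjusted p = 0.0590) in shRNA 1 and +0.30 (adjusted p = 0.621) in shRNA 2 livers, and +0.45 between the lines (adjusted p = 0.583). Trim30a, a member of the same cluster on chromosome 7, had 4.77, 5.14 and 5.38 in shRNA 1 livers, 4.88, 5.06 and 4.52 in shRNA 2 livers, against 4.27, 4.27, 4.53 and 5.37 in controls. Control replicate 4 matched the highest shRNA 1 liver, and the difference of +0.48 (adjusted p = 0.690) was +0.74 without that control. Of the 3 nearest tested genes on each side of Trim12a, the TRIM genes Trim34a, Trim30b and Trim30a differed by +0.39, +0.27 and +0.48 in shRNA 1 livers, while Olfr646, Olfm5 and Olfr661 were at -0.06, -0.04 and -0.31. None of these passed, and these TRIM genes are near copies of each other, which the array may not tell apart.

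Among the 12 tested interferon gamma genes, the transcription factors Irf1 and Irf8 were the 2 with negative differences in shRNA 1 livers. The other 10 were above 0 (52.4% of all genes). Irf1, the first factor that interferon gamma induces, had 6.25, 6.51 and 6.48 in shRNA 1 livers, 6.41, 6.12 and 6.52 in shRNA 2 livers, against 6.72, 6.58, 6.66 and 6.59 in controls. All 6 shRNA livers lay below all 4 controls. The differences were -0.22 (standard error 0.11, adjusted p = 0.671) in shRNA 1 and -0.29 (adjusted p = 0.621) in shRNA 2 livers, and -0.25 for both groups together (adjusted p = 0.506). Without shRNA 1 replicate 1 the shRNA 1 difference of Irf1 was -0.14, and without shRNA 2 replicate 2 that of shRNA 2 was -0.17. Irf8, a factor of macrophages and dendritic cells, had 5.25, 5.30 and 5.02 in shRNA 1 livers, 5.53, 5.55 and 5.47 in shRNA 2 livers, against 5.34, 5.25, 5.26 and 5.75 in controls. It was below shRNA 2 in all 3 shRNA 1 livers, with -0.33 between the lines (adjusted p = 0.786), and its differences from control were -0.21 in shRNA 1 (adjusted p = 0.743) and +0.12 in shRNA 2 livers (adjusted p = 0.866). Without control replicate 4 the shRNA 1 difference of Irf8 was -0.09.

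The GTPases coat the vacuoles of intracellular parasites, and of all role classes they had the widest gap between the medians of the 2 hairpin lines against control, with no member past the threshold. Of the 8 GTPases listed, 5 were tested, since Gbp6 lay under the level filter and Gbp2 and Ifi47 shared clusters with other genes. Those shared clusters differed little between the lines, at +0.12 in shRNA 1 and +0.05 in shRNA 2 livers for Gbp2, and -0.04 and -0.08 for Ifi47. In shRNA 1 livers 5 of 5 tested members had positive differences (52.4% of all genes), with a median of +0.47. In shRNA 2 livers 1 of 5 did (51.2% of all genes), with a median of -0.10. Gbp3, a guanylate-binding protein, had 5.39, 5.28 and 5.21 in shRNA 1 livers, 4.29, 4.81 and 4.74 in shRNA 2 livers, against 4.77, 4.60, 4.58 and 4.88 in controls. No shRNA 1 value overlapped the other groups. The difference was +0.58 from control (standard error 0.13, adjusted p = 0.233) and +0.68 from shRNA 2 (standard error 0.14, adjusted p = 0.281). Igtp, or Irgm3, had 7.50, 8.18 and 8.08 in shRNA 1 livers, 7.11, 7.44 and 7.12 in shRNA 2 livers, against 6.99, 7.33, 7.46 and 7.29 in controls. Here shRNA 1 replicate 1 was barely above the other livers and the other 2 were far above, giving +0.65 from control (standard error 0.17, adjusted p = 0.321) and +0.70 from shRNA 2 (adjusted p = 0.532). Irgm2, whose upstream window resembles that of Igtp, had 7.81, 8.16 and 8.06 in shRNA 1 livers, 7.48, 7.24 and 7.68 in shRNA 2 livers, against 7.76, 7.68, 7.79 and 7.92 in controls. The group means of the lines lay on either side of the control mean, while both lines overlapped the controls. Irgm2 was at +0.22 (adjusted p = 0.709) in shRNA 1 and -0.32 (adjusted p = 0.621) in shRNA 2 livers, and the difference between the lines was +0.54 (standard error 0.13, adjusted p = 0.429). Its shRNA 1 difference was +0.15 without shRNA 1 replicate 2, and its shRNA 2 difference -0.21 without shRNA 2 replicate 2. Irgm1, a regulatory relative that keeps the effector GTPases inactive, had 6.05, 6.76 and 6.40 in shRNA 1 livers, 5.93, 6.23 and 6.07 in shRNA 2 livers, against 6.16, 6.22, 6.25 and 6.13 in controls. Its groups overlapped, and it differed by +0.21 in shRNA 1 and -0.12 in shRNA 2 livers (adjusted p = 0.780 and adjusted p = 0.879), the second at -0.05 without shRNA 2 replicate 1 and -0.19 without shRNA 2 replicate 2. Gbp7 did not follow the split between the lines: it had 7.15, 7.52 and 7.43 in shRNA 1 livers, 7.18, 7.30 and 7.08 in shRNA 2 livers, against 6.56, 7.09, 7.02 and 6.92 in controls, at +0.47 (adjusted p = 0.364) and +0.29 (adjusted p = 0.670). Gbp and Irg genes have close relatives in tandem, so that some signal may be shared among copies.

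Of the genes that feed peptides to MHC class I, the proteasome subunit Psmb8 had 7.99, 7.43 and 7.91 in shRNA 1 livers, 7.76, 7.65 and 7.69 in shRNA 2 livers, against 7.62, 7.76, 7.75 and 7.44 in controls. Its partner subunit Psmb9 had 6.49, 6.63 and 6.50 in shRNA 1 livers, 6.70, 6.51 and 6.24 in shRNA 2 livers, against 6.28, 6.70, 6.65 and 6.08 in controls. The peptide transporter Tap1 had 7.66, 7.56 and 7.82 in shRNA 1 livers, 7.60, 7.43 and 7.44 in shRNA 2 livers, against 7.84, 7.59, 7.60 and 7.45 in controls. In all 3 genes the shRNA livers overlapped the controls. Their differences were +0.13, +0.11 and +0.06 in shRNA 1 livers and +0.06, +0.06 and -0.13 in shRNA 2 livers, with adjusted p-values of 0.827 or more. On leaving out each array the shRNA 1 difference of Psmb8 ran from +0.03 (without shRNA 1 replicate 1) to +0.31 (without shRNA 1 replicate 2). That of Psmb9 was -0.0030 without control replicate 4, and that of Tap1 was -0.01 without shRNA 1 replicate 3. Cxcl9, a chemokine that draws T cells through CXCR3, had 9.29, 9.34 and 9.18 in shRNA 1 livers, 8.96, 8.77 and 8.95 in shRNA 2 livers, against 9.38, 8.70, 8.58 and 9.03 in controls. All shRNA 1 livers were above the shRNA 2 livers, but control replicate 1 was above both, and the shRNA 1 difference of +0.35 (adjusted p = 0.643) was +0.50 without that control. Cxcl10, a ligand of the same receptor, had 4.84, 4.87 and 4.71 in shRNA 1 livers, 4.66, 4.73 and 4.62 in shRNA 2 livers, against 4.55, 4.71, 4.74 and 4.46 in controls. The groups overlapped, and it differed by +0.19 in shRNA 1 livers (adjusted p = 0.675) and +0.06 in shRNA 2 livers (adjusted p = 0.922).

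**Figure D3:**
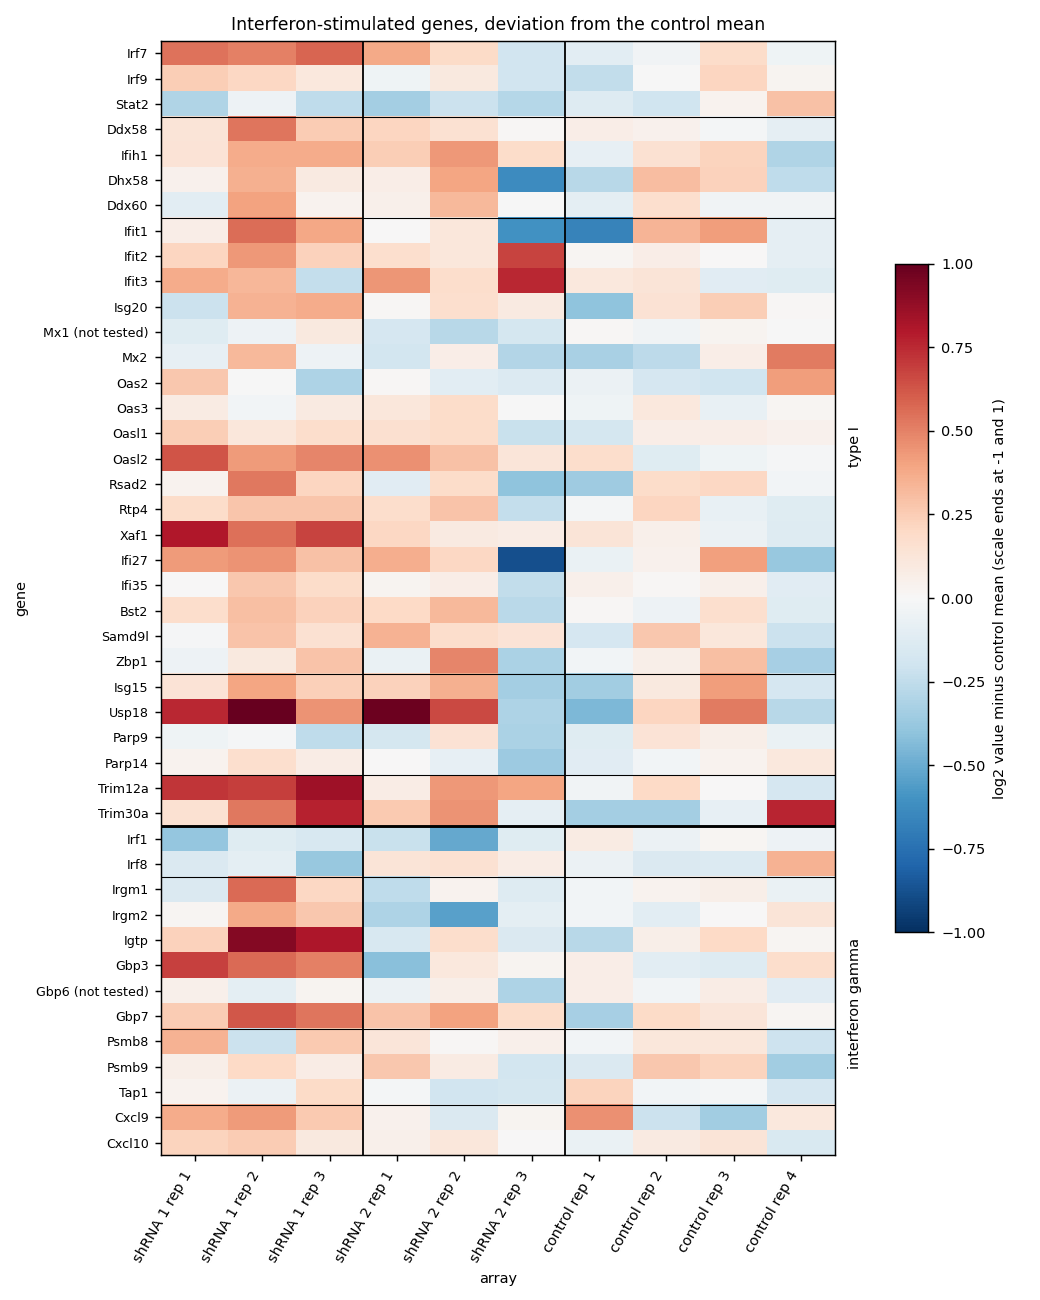
Deviation of each log2 value from the gene's control mean for the 44 members with a cluster of their own, in rows by role, and the 10 arrays in columns, shRNA 1 at the left and control at the right. Irf7, Oasl2, Xaf1, Trim12a, Gbp3 and Gbp7 are red in all 3 shRNA 1 columns, and shRNA 2 replicate 3 and control replicate 1 share blue cells for Ifit1, Rsad2, Isg15 and Usp18.

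The arrays of a group differed from each other for many members at once. As a median over the 30 tested type I members, the deviation from the control mean was +0.14, +0.35 and +0.23 in shRNA 1 livers, +0.14, +0.18 and -0.21 in shRNA 2 livers, against -0.10, +0.07, +0.06 and -0.09 in controls. Over the 12 interferon gamma members it was +0.14, +0.32 and +0.23 in shRNA 1 livers, +0.01, +0.06 and -0.05 in shRNA 2 livers, against -0.03, 0.00, +0.04 and -0.01 in controls. In both classes the 3 shRNA 1 livers were above the 4 controls, although for type I genes 2 shRNA 2 livers reached the lowest shRNA 1 liver. The array of shRNA 2 replicate 3 was the lowest of the 10 for 10 of the 30 type I members, against 12.1% of all genes, and for 0 of the 12 interferon gamma members. The type I median of shRNA 2 minus control was +0.08 with all arrays, +0.19 without that array and -0.03 without shRNA 2 replicate 2. The array of shRNA 1 replicate 2 was the highest for 13 of the 42 members, against 8.59% of all genes, and without it the shRNA 1 median over all members was still positive, within the range of +0.15 to +0.27 that leaving out each array gave.

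Other genes of the pathway were read from lists chosen by role. Of the interferon ligands, 5 of 16 reached the level filter, and Ifnb1 and Ifng, the genes of interferon beta and gamma, were under it, at group means of 2.71 and 3.28 in shRNA 1 livers, 2.43 and 3.41 in shRNA 2 livers, against 2.54 and 3.38 in controls. The tested ligands Ifna4, Ifna14 and Ifnl2 differed by +0.38, -0.11 and -0.06 in shRNA 1 livers, none past the threshold. Among 5 tested receptors 0 passed in either line. Ifngr1, the ligand-binding chain for interferon gamma, had 8.50, 8.34 and 8.58 in shRNA 1 livers, 8.35, 8.58 and 8.52 in shRNA 2 livers, against 8.12, 8.38, 8.30 and 8.15 in controls, with differences of +0.24 and +0.25 (adjusted p = 0.599 and adjusted p = 0.630). Its partner Ifngr2 was at -0.24 in shRNA 1 livers (adjusted p = 0.644), and the type I chain Ifnar2 at -0.14 (adjusted p = 0.773). Of 9 tested JAK-STAT genes 0 passed, with shRNA 1 differences from -0.17 to +0.17, including Jak2 at +0.17, Stat3 at -0.15 and Jak1 at -0.08. Of 10 tested genes of nucleic acid sensing 0 passed, with Tlr3, the endosomal sensor of double-stranded RNA, at +0.26 (adjusted p = 0.588), Ticam1, its adaptor, at +0.16 and Ikbke at -0.14 in shRNA 1 livers.

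Antigen presentation genes, downstream of interferon gamma, had positive differences in 14 of 15 tested genes in shRNA 1 livers (52.4% of all genes), with a median of +0.14. In shRNA 2 livers 11 of 15 did (51.2% of all genes), with a median of +0.08, and 0 passed the threshold in either line. Ciita, the master regulator of MHC class II, had 5.58, 5.44 and 5.63 in shRNA 1 livers, 5.27, 5.25 and 5.24 in shRNA 2 livers, against 5.13, 4.99, 5.07 and 5.45 in controls. It differed by +0.39 in shRNA 1 livers (adjusted p = 0.364) and +0.09 in shRNA 2 livers (adjusted p = 0.877), with control replicate 4 in the range of the shRNA 1 livers. Its target H2-Ab1 had 8.42, 8.94 and 9.02 in shRNA 1 livers, 8.27, 7.82 and 7.61 in shRNA 2 livers, against 7.53, 7.69, 7.45 and 8.91 in controls, a difference of +0.89 (standard error 0.31, adjusted p = 0.491). H2-Aa was at +0.75 in shRNA 1 livers (adjusted p = 0.471), and again control replicate 4 was the highest control, at 7.10 against 5.90 to 6.60. Of 39 other interferon-stimulated genes tested, 34 had positive differences in shRNA 1 livers, against 52.4% of all genes. In shRNA 2 livers 21 of 39 did, near the 51.2% of all genes. The medians of this list were +0.13 and +0.01, with 0 past the threshold in either line. Phf11b, Gbp9 and Apol9b had the largest moderated statistics of this list in shRNA 1 livers, at +0.42 (adjusted p = 0.272), +0.35 (adjusted p = 0.407) and +0.44 (adjusted p = 0.504). In shRNA 2 livers these were at 0.00, -0.09 and +0.01. Gbp10 and Gbp4 had larger shRNA 1 differences with larger standard errors, at +0.65 (standard error 0.411, adjusted p = 0.750) and +0.48 (standard error 0.228, adjusted p = 0.654).

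**Figure D4:**
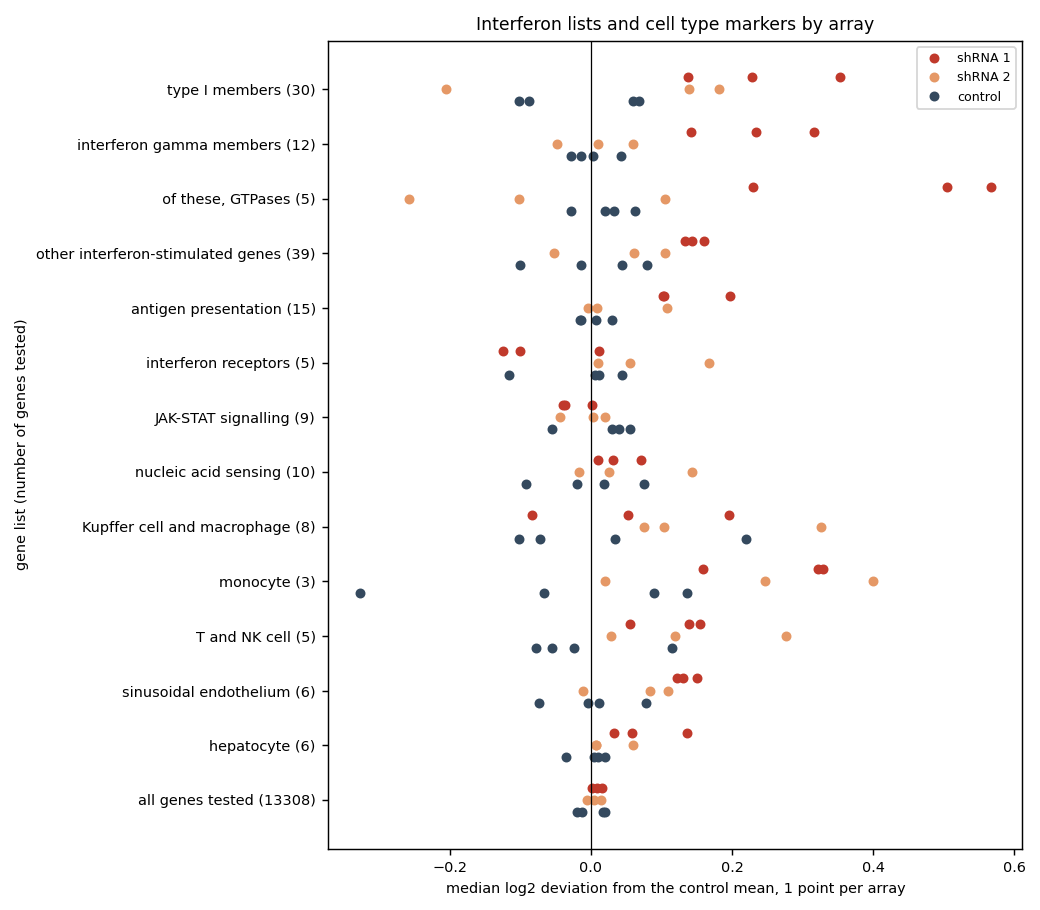
Median log2 deviation from the control mean over each gene list, 1 point per array, with the number of tested genes in parentheses. The shRNA 1 points of both member classes, of the GTPases, of the other interferon-stimulated genes and of antigen presentation lie above all control points. Those of monocyte, sinusoidal endothelium and hepatocyte markers do so too, while the medians of all genes tested stay near 0.

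Markers of the liver's cell types were read beside these genes, since in bulk tissue fewer cells of a type and less RNA per cell cannot be told apart. As array medians, the 3 of 4 monocyte markers that were tested (Ly6c2, Cx3cr1 and Fcgr4) stood at +0.16 to +0.33 in shRNA 1 livers, +0.02 to +0.40 in shRNA 2 livers and -0.33 to +0.14 in controls. The 6 sinusoidal endothelium markers stood at +0.12 to +0.15 in shRNA 1 livers, -0.01 to +0.11 in shRNA 2 livers and -0.07 to +0.08 in controls. Kupffer cell and macrophage markers, 8 of 8 tested, overlapped between groups, at -0.08 to +0.20 in shRNA 1 livers, +0.08 to +0.33 in shRNA 2 livers and -0.10 to +0.22 in controls. T and NK cell markers, 5 of 10 tested, stood at +0.06 to +0.15 in shRNA 1 livers, +0.03 to +0.28 in shRNA 2 livers and -0.08 to +0.12 in controls, and Cd3d, Cd8a, Gzma, Klrb1c and Ncr1 were under the level filter, as were all 5 neutrophil markers. Hepatocyte markers, 6 of 6 tested, were at +0.03 to +0.14 in shRNA 1 livers, +0.01 to +0.06 in shRNA 2 livers and -0.04 to +0.02 in controls. The hepatocyte medians of the shRNA 1 livers thus also lay above those of the controls. Single hepatocyte markers differed in direction, with 5 above 0 and 1 below in shRNA 1 livers (-0.09 for Apoa1 to +0.54). All 3 shRNA 1 livers lay above all 4 controls for 3 of these markers (5.07% of all genes) and below them for Apoa1 (3.82% of all genes). Medians of B cell, dendritic cell, stellate cell and cholangiocyte markers overlapped between shRNA 1 livers and controls. The part of these cell types in the differences of the interferon genes was not tested.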

How the data were processed

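RNA from 25 mg of each liver was measured on 10 arrays. Per the submitters' processing notes the authors used Affymetrix Expression Console to make the deposited log2 values per transcript cluster. For its version, background correction, normalization and build: not given in the sources used here. That the values are log2 was judged from their range (1.405 to 13.82).

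Members, lists and tests were chosen with earlier results of these data known. Of 41345 clusters, 23521 had 1 symbol in the platform annotation, and the cluster with the highest mean stood for a gene. Genes under the 40th percentile of mean level were left out. Groups came from the sample titles. One limma fit (limma 3.58.1, R 4.3.3; lmFit, contrasts.fit, eBayes) over all 10 arrays gave 4 comparisons, two-sided, with Benjamini-Hochberg adjustment over 13308 genes and a threshold of 0.05. The fit was tested on simulated data, where recovery was required only for shifts larger than any member difference given here. That test therefore does not show that differences of the members' size would be called. No 2 arrays held identical values. Plots used matplotlib 3.10.9 under Python 3.11.15.

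Named members are up to 4 in each role class with the largest absolute moderated statistic in shRNA 1 against control, up to 2 more from shRNA 2, those past an adjusted p of 0.1 with their 3 nearest tested genes on each side, and up to 3 genes of each pathway list. Array values of Ifit1, Bst2 and Ifi27 were added after they were seen. The main fit did not treat replicate numbers as pairs. Correlations between groups, over deviations from the group means, lay between -0.25 and 0.267 for same-numbered arrays. For differently numbered arrays they lay between -0.279 and 0.272. Same-numbered arrays of control and shRNA 1 had 0.217, 0.083 and 0.122, and those of control and shRNA 2 had -0.063, 0.267 and -0.25. These ranges overlap and do not settle whether the numbers pair the arrays. The alternatives tried are given under the dependence on processing.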

Additional observations from a re-analysis of the deposited data

Results flagged for a closer look

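Among the 42 tested members, 1 had a control far from the other 3 by Dixon's criterion for 4 samples. Oasl1 stood at 5.93 in control replicate 1, against 6.14 to 6.17 in the other controls. Chance gives such a gap in about 1 of 20 groups, so that 1 in 42 is below that rate.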

How the results depend on the processing

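No member passed the threshold in shRNA 2 against control, in shRNA 1 against shRNA 2 or in both shRNA groups against control under any alternative run. In shRNA 1 against control 2 members (Xaf1 and Trim12a) passed with the level filter at the 60th percentile, with array weights, with an intensity trend and robust prior, and at a threshold of 0.1. Xaf1 alone passed (1 member) when clusters of a gene were averaged, and leaving out each array gave 0 to 1, with Xaf1 passing without shRNA 2 replicate 3. Over all genes, shRNA 1 against control had 0 calls, and 1 with quantile normalization, 15 with the 60th percentile filter, 7 with averaged clusters, 19 with array weights, 30 with the trend and robust prior, 20 at a threshold of 0.1 and 0 to 11 on leaving out each array (11 without shRNA 2 replicate 3, 9 without control replicate 4 and 2 without control replicate 1). For shRNA 2 against control there was 1 call, 0 with the 60th percentile filter and 1 to 3 on leaving out each array (3 without control replicate 1, 2 without control replicate 4). For both shRNA groups against control there was 1 call, 0 with the 60th percentile filter, 0 with only the groups compared as 1 group of 6, 6 with the trend and robust prior, 2 at a threshold of 0.1 and 1 to 3 on leaving out each array (3 without control replicate 1, 2 without control replicate 4). Between the lines there were 2 calls, 1 with quantile normalization, 4 with median centring, 1 with the 60th percentile filter, 6 with array weights, 7 with the trend and robust prior, 8 at a threshold of 0.1 and 1 to 4 on leaving out each array, the highest without control replicate 4. With the replicate number as a block there were 4 between the lines, 1, 0 and 1 in the other comparisons, and 0 members in each. Without control replicate 1 and shRNA 2 replicate 3 together, an alternative chosen after seeing the data, the counts were 4 for both groups and 8 for shRNA 1. Members outside the naming rule were not refitted one by one. Small shRNA 1 differences turned sign for 3 of the named members. Psmb9 was at -0.0030 with the block, and ran from -0.0030 (without control replicate 4) to 0.20 on leaving out each array. Ddx60 ran from -0.036 (without shRNA 1 replicate 2) to 0.22, and Tap1 from -0.011 (without shRNA 1 replicate 3) to 0.13. The cause of these changes was not tested. On leaving out each array, the member median kept its sign in shRNA 1 (0.15 to 0.27) and ran from -0.03 to 0.15 in shRNA 2. The number of arrays limits what could be called, and genes near the level filter have little signal over background.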
